A study of Mus musculus with 6 samples.

Results

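Collagens are the triple-helical proteins that give tissues their scaffold. The genes followed here are the 44 of the 53546 genes in the count tables whose symbol has the form Col, a number, a and a number, that is, every gene that encodes an alpha chain of a numbered collagen type by name. They fall into 11 fibrillar genes, 8 basement membrane genes and 25 others. The RNA came from the non-parenchymal cells of the liver, in 3 male SRA-/- mice and 3 male wild type mice. SRA-/- mice are without scavenger receptor A, which macrophages carry and Msr1 encodes. All 6 mice had received acetaminophen, 400 mg/kg into the peritoneum, and their cells were taken 6 h later. Both groups had thus been given the drug, and no value below is a response to it. Strain, age and the allele's design are not given in the labels used here.

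An alpha chain is folded with its partners into a triple helix in the endoplasmic reticulum, secreted, and in the fibrillar types trimmed by propeptidases before it assembles into fibrils that lysyl oxidases crosslink. Type IV collagen forms the net of basement membranes, and types XV and XVIII are proteoglycans of basement membrane zones. Type XVIII is the source of endostatin. Other families decorate fibrils (FACIT collagens), form beaded filaments (type VI), anchor epithelia (type VII) or span the plasma membrane (types XIII, XVII, XXIII and XXV). In liver, stellate cells and portal fibroblasts are the known makers of fibrillar collagen, sinusoidal endothelial cells express type IV chains, and hepatocytes are a known source of Col18a1.

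Each library held 23757203 to 44003902 counts, and the mitochondrial share ran from 6.64% to 21.1%. A floor of 6 counts, which is 3 fragments with both mates counted, came to 0.136 to 0.253 CPM (counts scaled to the library total) and covers counting error only. Levels of different genes are compared below only per length, as TPM (counts scaled to all exon bases of a gene and to the library). TPM thus depends on the transcripts annotated. Between libraries 1 gene is compared as CPM scaled by the trimmed mean of M values (TMM). The targeted gene had 40.2, 33.6 and 42.0 CPM in SRA-/- replicates 1 to 3, against 38.6, 73.5 and 113.6 CPM in wild type replicates 1 to 3. Whole-gene counts of Msr1 thus overlapped between the groups, and they cannot show whether the remaining reads come from a disrupted transcript. The labels call the mice biological replicates, and edgeR p-values set the difference between groups against the spread between libraries of the same group.

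No collagen gene passed the test. Of the 44 genes 37 had enough counts to be tested, and edgeR's quasi-likelihood test called 0 of them at an adjusted p of 0.05, where it called 0.0487% of all 20541 genes tested. DESeq2 and limma-voom with quality weights also called 0 of 37, against backgrounds of 0.331% and 0.482%. Without adjustment 1 of 37 genes, Col15a1, had an edgeR p under 0.05, a share of 2.70% against 3.22% of all genes tested. DESeq2 gave 2 such genes and voom 5, against 3.51% and 11.7% of all genes tested. The groups did not overlap for 4 of the 37 genes, 10.8% against 7.3% of all genes tested. These were Col15a1 and Col5a3, higher in SRA-/- libraries (background 3.97%), and Col24a1 and Col4a6, lower there (background 3.33%). This holds for TMM-scaled CPM. On the TPM scale the groups overlapped for Col5a3, Col24a1 and Col4a6 and stayed apart for Col15a1 alone of these.

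The fitted log2 fold changes, SRA-/- over wild type, lay between -0.39 and 0.81 with a median of -0.07, and 15 were above 0 and 22 below. The median over all genes tested was -0.01. Fold changes above 0 made up 40.5% of the tested collagen genes and 48.3% of all genes tested. For 21 of the 37 genes the 95% interval lay within 2-fold in both directions, and for the others it did not exclude a 2-fold difference. The median tested collagen gene differed 2.08-fold between its highest and its lowest library, with a range of 1.26-fold to 4.12-fold. The median over all genes tested was 1.96-fold. Among genes with a mean of at least 1 CPM the medians lay farther apart, 2.13-fold for 33 collagen genes against 1.77-fold for all genes tested.

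**Figure D1:**
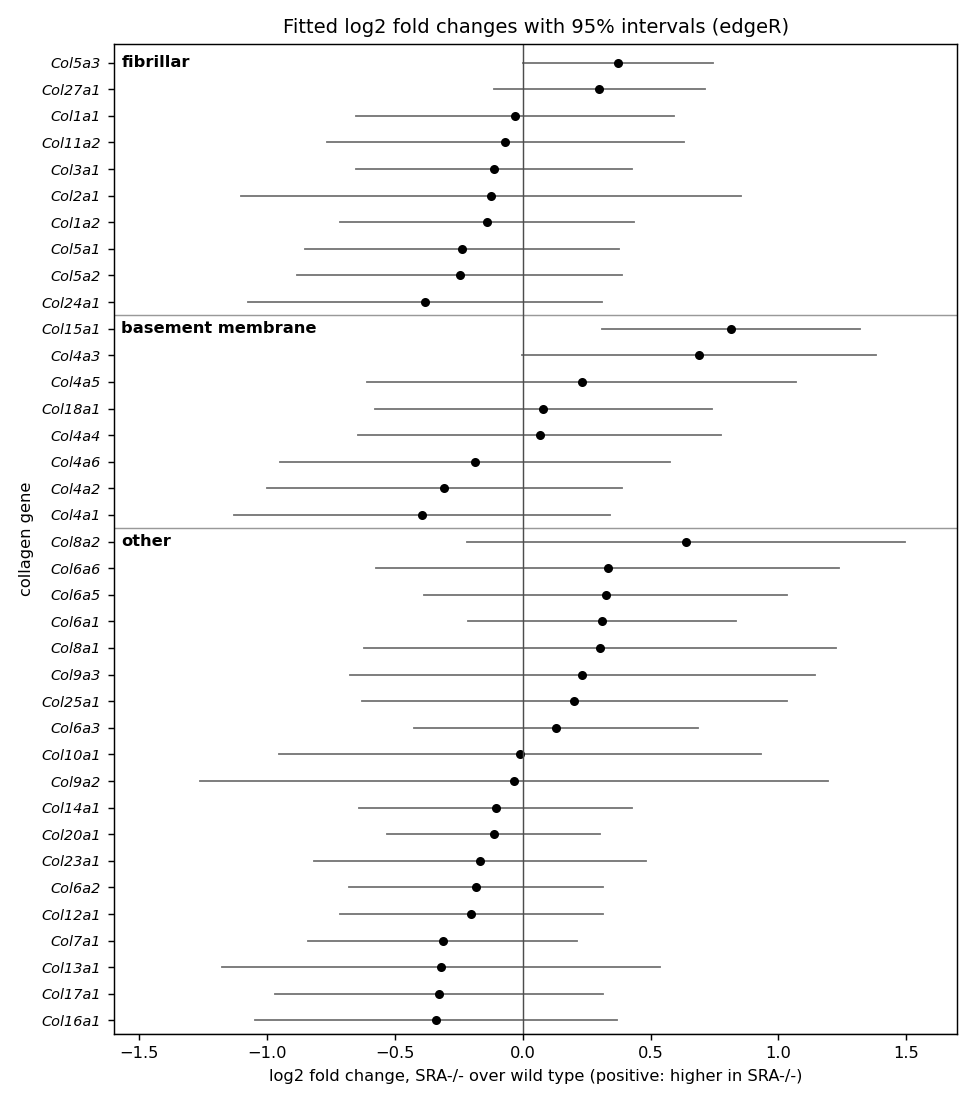
Fitted log2 fold change of each tested collagen gene, SRA-/- over wild type, on the horizontal axis, with genes grouped as fibrillar, basement membrane and other and ordered by value. Points are edgeR estimates and lines their 95% intervals, from 3 libraries per group; the interval of Col15a1, at 0.81, is the one that does not reach 0, and no gene passed the adjusted threshold.

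Basement membrane genes held most of the collagen TPM of this cell fraction, largely through Col18a1. Hepatocyte RNA was abundant in the fraction too, and which cells the Col18a1 reads came from was not tested. Col18a1 alone made up 54.3% of the summed collagen TPM, and Col4a1 and Col4a2, the chains of the common type IV trimer, another 13.5% and 9.78%. With Col13a1, a transmembrane collagen, 4 genes held 85.3%, and with Col14a1 and Col5a3 6 genes held 91.2%. The order of these 6 genes was the same in all 6 libraries. Below them neighbours in the order were less separated: Col5a1 exceeded Col6a1 in 3 of 6 libraries, and Col1a1 exceeded Col1a2 in 3 of 6. A mean of at least 100 TPM was reached by 4 genes, of at least 10 TPM by 10 and of at least 1 TPM by 28.

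Summed over the family, collagen transcripts came to 1462, 1004 and 1390 TPM in SRA-/- replicates 1 to 3, against 1059, 1560 and 1433 TPM in wild type replicates 1 to 3. The ranges overlapped, and collagens took 0.311% to 0.425% of all counts. Basement membrane genes held 77.4%, 76.0% and 81.7% of collagen TPM in the SRA-/- libraries, against 83.0%, 78.2% and 72.7% in the wild type libraries. Fibrillar genes held 6.49%, 8.35% and 5.65% in the SRA-/- libraries, against 5.597%, 5.90% and 6.81% in the wild type libraries. The other genes held 16.1%, 15.6% and 12.6% in the SRA-/- libraries and 11.4%, 15.9% and 20.5% in the wild type libraries. Wild type replicates 1 and 3 set both ends of the basement membrane share and of the share of other genes. The classic scar collagens were a small part: Col1a1, Col1a2 and Col3a1 together came to 29.0, 29.2 and 21.6 TPM in the SRA-/- libraries, against 16.97, 34.6 and 36.6 TPM in the wild type libraries.

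**Figure D2:**
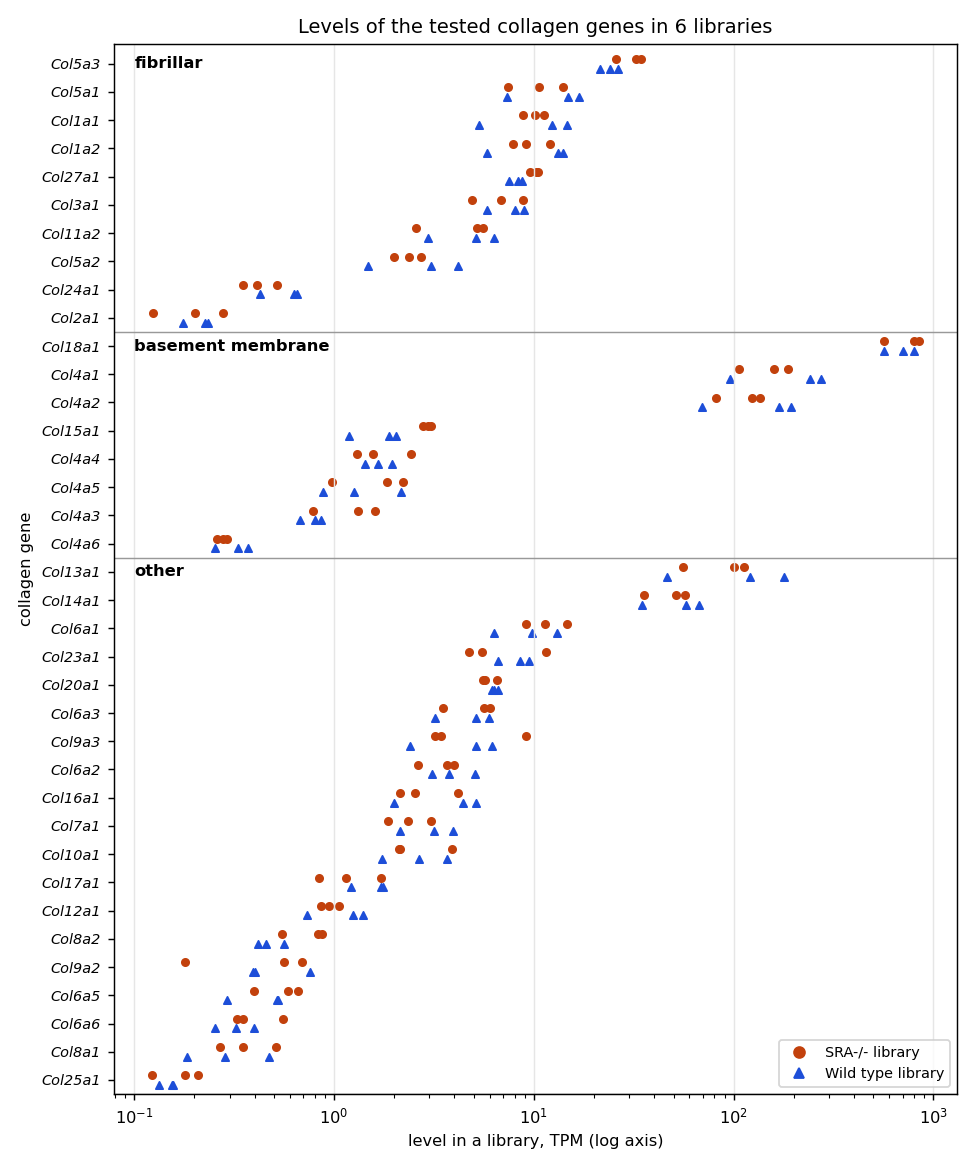
Level of each of the 37 tested collagen genes in each library, in TPM on a log axis, with circles for the 3 SRA-/- libraries and triangles for the 3 wild type libraries. Col18a1, between 566 and 848 TPM, stands above every other member in all 6 libraries, and the symbols of both groups interleave for most genes.

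Among the basement membrane genes, all 8 were tested, 5 with a fold change above 0 and 3 below, with a median of 0.07 on the log2 scale. Col18a1, on chromosome 10 at 76888012 to 77002382 (mm39), had 2172, 1745 and 2426 CPM in SRA-/- replicates 1 to 3, against 2378, 2101 and 1519 CPM in wild type replicates 1 to 3. The groups overlapped from end to end, and the log2 fold change was 0.08 ± 0.29 (SE), with a 95% interval from -0.58 to 0.74. Its counts sum the transcripts of both its RefSeq starts, which give the short and long forms of the protein, so a shift between forms would not show.

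Col4a1 and Col4a2 are neighbours on chromosome 8, read in opposite directions from starts that overlap by 22 bases (Col4a1 at 11248423 to 11362826 on the minus strand, Col4a2 at 11362805 to 11499287 on the plus strand, mm39). That shared stretch is printed because it makes this pair the closest in the family. Both strands are shown, read from RefSeq at the pair's position in GRCm38.p6, chr8:11312805-11312826, each 5′ to 3′ in the direction of its own gene.
Col4a2: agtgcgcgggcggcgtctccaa
Col4a1: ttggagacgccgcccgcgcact
The arrangement recurs in the genes of the minor type IV chains, with 71 bases between Col4a4 and Col4a3 and 1308 bases between Col4a6 and Col4a5.

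Col4a1 had 539, 347 and 482 CPM in SRA-/- replicates 1 to 3, against 343, 670 and 784 CPM in wild type replicates 1 to 3. Col4a2 had 345, 237 and 332 CPM in the SRA-/- libraries, against 221, 418 and 492 CPM in the wild type libraries. For both genes wild type replicate 1 was the lowest library and wild type replicates 3 and 2 were the highest, so that the wild type range enclosed every SRA-/- library. The log2 fold changes were -0.39 ± 0.33 (95% interval -1.13 to 0.34) for Col4a1 and -0.31 ± 0.31 (-1.001 to 0.39) for Col4a2. The ratio of the chains moved little. Per kb of exon, Col4a1 stood to Col4a2 as 1.38, 1.30 and 1.29 in the SRA-/- libraries and as 1.38, 1.42 and 1.41 in the wild type libraries. The coefficient of variation of the ratio was 4.16% over 6 libraries, while each gene differed more than 2-fold between libraries. The type IV pair shares its chromosome with Msr1, which starts 28.5 Mb beyond the end of Col4a2.

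Col15a1 was the member nearest to a call. It encodes the collagen XV chain, the close relative of Col18a1, and lies on chromosome 4 at 47208161 to 47313167 (mm39). Its counts were 314, 247 and 174 in SRA-/- replicates 1 to 3, against 105, 128 and 155 in wild type replicates 1 to 3. On the CPM scale it had 6.83, 8.25 and 7.90 in the SRA-/- libraries, against 3.61, 4.86 and 4.59 in the wild type libraries, with means of 7.66 ± 0.74 in SRA-/- and 4.35 ± 0.66 in wild type (SD, n = 3 each). Every SRA-/- library lay above every wild type library, also on the TPM scale. The fitted difference was 0.81 ± 0.23 on the log2 scale, or 1.76-fold with a 95% interval from 1.24-fold to 2.496-fold. Its edgeR p was 0.00518 before adjustment and 0.851 after Benjamini-Hochberg adjustment over all genes, so it did not pass. DESeq2 gave an adjusted p of 0.168 and limma-voom 0.174, and over the alternatives tried the adjusted p ran from 0.168 to 1 with log2 fold changes between 0.64 and 0.90.

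The upstream sequences of both multiplexin genes are shown because these close relatives are the member nearest to a call and the most abundant member, 715 TPM for Col18a1 and 2.32 TPM for Col15a1 in the mean of 6 libraries. Windows of 250 bases before the start were taken from RefSeq (GRCm38.p6) and searched over their full length, annotated exon bases included, on both strands for the CCAAT box, the GC box (GGGCGG) and the TATA box (TATAAA). Capitals mark a CCAAT box or a GC box on either strand, so that a box on the other strand reads ATTGG or, for the GC box, CCGCCC. Printed are the bases farther upstream than any annotated exon, chr4:47207762-47208011 on the plus strand for Col15a1 and chr10:77166549-77166780 on the minus strand for the start of Col18a1 farther upstream.
Col15a1: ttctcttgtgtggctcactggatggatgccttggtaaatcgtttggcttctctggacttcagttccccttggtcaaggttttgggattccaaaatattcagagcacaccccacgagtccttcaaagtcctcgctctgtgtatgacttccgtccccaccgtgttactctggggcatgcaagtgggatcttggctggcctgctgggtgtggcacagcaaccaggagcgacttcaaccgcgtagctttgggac
Col18a1: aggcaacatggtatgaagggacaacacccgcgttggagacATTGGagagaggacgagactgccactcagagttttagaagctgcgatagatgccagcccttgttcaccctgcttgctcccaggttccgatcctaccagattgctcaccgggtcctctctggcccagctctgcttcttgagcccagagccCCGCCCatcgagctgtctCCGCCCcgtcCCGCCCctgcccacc
This Col18a1 window held 1 CCAAT box and 3 GC boxes. The window at the other Col18a1 start and the Col15a1 window held none of the 3 motifs. RefSeq gave windows for 35 of the 44 genes, 38 windows in all. The GC box was in 22 of these 38 windows (57.9%, against 32.7% of 32851 windows of all genes), the CCAAT box in 13 (34.2% against 33.8%) and the TATA box in 5 (13.2% against 12.4%). These matches are descriptions of letters, and no binding was measured.

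Of the minor type IV chains, Col4a3, which with Col4a4 and Col4a5 makes the trimer of specialised basement membranes, had 5.07, 7.01 and 3.18 CPM in SRA-/- replicates 1 to 3, against 3.23, 2.999 and 3.26 CPM in wild type replicates 1 to 3. SRA-/- replicates 1 and 2 were above the wild type range and SRA-/- replicate 3 was inside it. The log2 fold change was 0.69 ± 0.31 (95% interval -0.00 to 1.38), with an edgeR p of 0.0505 before and 0.9999 after adjustment. Col4a3 shares 563 exon bases with a gene on the other strand, C430014B12Rik, and under counting without strand the reads of such shared bases go uncounted. Col4a4, Col4a5 and Col4a6 had log2 fold changes of 0.07, 0.23 and -0.19. Col4a6 did not overlap between groups, at 0.89 to 0.91 CPM in SRA-/- libraries and 0.96 to 1.13 CPM in wild type libraries, with an interval from -0.95 to 0.57 on the log2 scale. It rested on few counts, 41, 27 and 20 in SRA-/- replicates 1 to 3, against 28, 26 and 38 in wild type replicates 1 to 3.

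**Figure D3:**
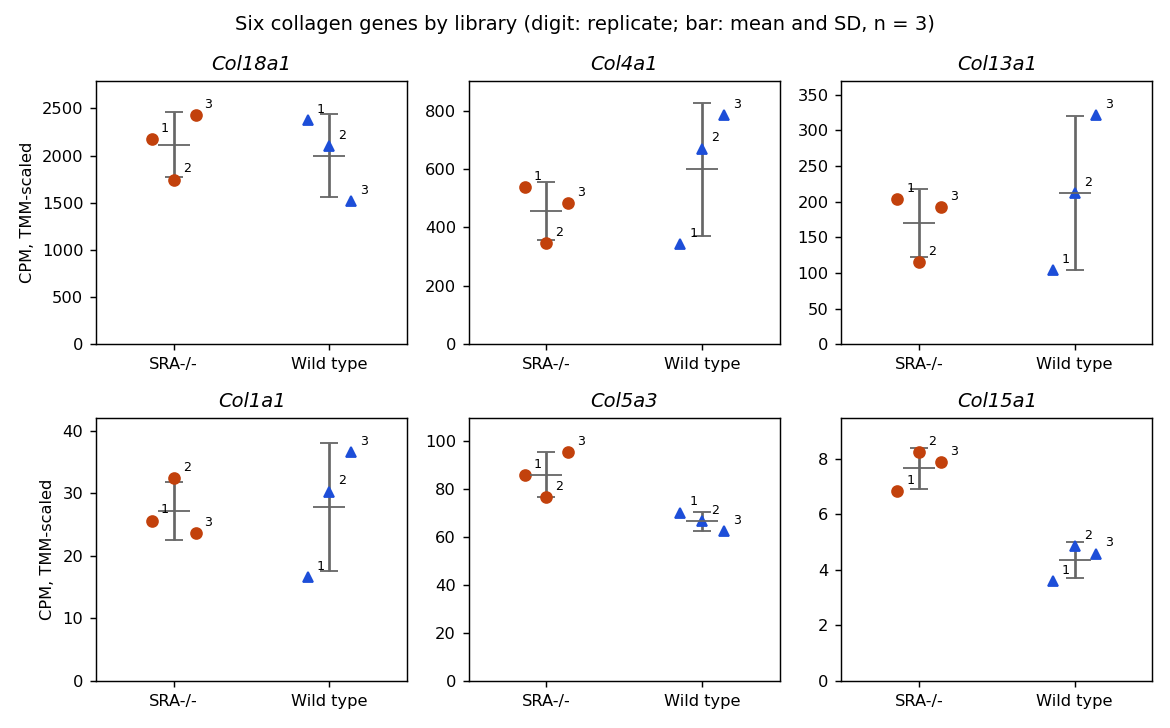
TMM-scaled CPM of 6 collagen genes in each library, circles for SRA-/- and triangles for wild type, with the replicate number beside each symbol and bars for the mean and SD (n = 3 per group). Col5a3 and Col15a1 do not overlap between groups, while wild type replicate 3 is the lowest library for Col18a1 and the highest for Col4a1, Col13a1 and Col1a1.

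Of the 11 fibrillar genes 10 were tested, 2 with a fold change above 0 and 8 below, and their median was -0.12 on the log2 scale, with a range from -0.38 to 0.37. By mean TPM the most abundant was Col5a3, the minor chain of type V collagen, and not a chain of type I. The size of its lead over Col1a2 depends on the exon lengths used, 6809 bases for Col5a3 and 12426 bases for Col1a2. Col5a3 lies on chromosome 9 at 20681346 to 20726363 (mm39). It had 85.8, 76.6 and 95.3 CPM in SRA-/- replicates 1 to 3, against 70.1, 66.7 and 62.4 CPM in wild type replicates 1 to 3. The CPM of every SRA-/- library was above that of every wild type library, with the gap between SRA-/- replicate 2 and wild type replicate 1 the smallest. On the TPM scale the groups overlapped, since SRA-/- replicate 2 had 25.7 TPM and wild type replicate 2 had 26.3 TPM. The log2 fold change was 0.37 ± 0.17 (95% interval -0.00 to 0.74), with an edgeR p of 0.0502 before and 0.9999 after adjustment.

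The other chains of type V, which nucleate and limit the width of type I fibrils, did not share that direction. Col5a1 had 46.2, 40.0 and 25.8 CPM in SRA-/- libraries, against 30.0, 47.1 and 55.1 CPM in wild type libraries, with a log2 fold change of -0.24 ± 0.27 (-0.85 to 0.38). Col5a2 had 10.05, 8.42 and 9.31 CPM in SRA-/- libraries, against 6.77, 10.9 and 15.25 CPM in wild type libraries, with a log2 fold change of -0.25 ± 0.28 (-0.88 to 0.39). For both, wild type replicate 3 was the highest library. Whether the fold change of Col5a3 differed from those of the other chains was not tested.

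Type I collagen, built of Col1a1 and Col1a2 chains, is the main fibril of scar. Col1a1 had 25.6, 32.5 and 23.6 CPM in SRA-/- replicates 1 to 3, against 16.6, 30.3 and 36.6 CPM in wild type replicates 1 to 3, and Col1a2 had 57.6, 49.6 and 39.95 CPM in the SRA-/- libraries, against 34.6, 61.4 and 66.3 CPM in the wild type libraries. In both genes the lowest and the highest library were wild type replicates 1 and 3. The log2 fold changes were -0.03 ± 0.28 (-0.65 to 0.59) and -0.14 ± 0.26 (-0.72 to 0.43). Col3a1, the chain of type III fibrils that accompany type I, had 26.0, 38.1 and 19.6 CPM in SRA-/- libraries, against 27.5, 32.7 and 30.3 CPM in wild type libraries, and its fold change was -0.11 ± 0.24 on the log2 scale. Here both ends of the range were SRA-/- libraries, replicates 2 and 3.

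Col24a1, a fibrillar chain of low level, was lower in every SRA-/- library, at 1.52, 1.37 and 1.09 CPM, than in any wild type library, at 1.55, 1.78 and 1.90 CPM. The nearest libraries of both groups all but met, and the log2 fold change of -0.38 ± 0.31 (-1.08 to 0.31) had an edgeR p of 0.246 before and 0.9999 after adjustment. Col27a1 was tested with a fold change of 0.30 ± 0.18 and Col11a2 with -0.07 ± 0.31 on the log2 scale. Col2a1, the cartilage collagen, was near 1 CPM or under it in every library. Col11a1 was not tested, with 9, 0 and 0 counts in SRA-/- libraries and 0, 2 and 4 counts in wild type libraries.

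Of the 25 other collagens 19 were tested, 8 with a fold change above 0 and 11 below, with a median of -0.04 on the log2 scale and a range from -0.34 to 0.64. Col13a1, a transmembrane collagen found at cell adhesions, led this class. It had 203, 115 and 192 CPM in SRA-/- replicates 1 to 3, against 104, 212 and 321 CPM in wild type replicates 1 to 3. Its order of libraries was that of Col4a1 and Col4a2, with wild type replicates 3 and 2 at the top and SRA-/- replicate 2 and wild type replicate 1 at the bottom. The log2 fold change was -0.32 ± 0.38 (-1.18 to 0.54).

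Col14a1, a FACIT collagen bound to the surface of fibrils, had 154, 159 and 102 CPM in SRA-/- libraries, against 116, 175 and 155 CPM in wild type libraries, with a log2 fold change of -0.11 ± 0.24 (-0.64 to 0.43). SRA-/- replicate 3 was its lowest library. Col7a1, the anchoring fibril chain, had 12.2, 10.55 and 7.81 CPM in SRA-/- libraries and 10.5, 12.1 and 15.4 CPM in wild type libraries, with a log2 fold change of -0.31 ± 0.23 (-0.84 to 0.21). Wild type replicate 3 was again the highest.

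The 3 chains of type VI collagen that are folded together did not all lie on 1 side of 0. Col6a1 had 24.8, 21.8 and 16.3 CPM in SRA-/- replicates 1 to 3, against 13.2, 21.2 and 16.4 CPM in wild type replicates 1 to 3. Col6a2 had 12.8, 13.5 and 8.94 CPM in the SRA-/- libraries, against 12.3, 15.8 and 11.96 CPM in the wild type libraries. Col6a3 had 26.0, 31.7 and 17.02 CPM in the SRA-/- libraries, against 18.4, 26.5 and 23.4 CPM in the wild type libraries. All 3 overlapped between groups, and the log2 fold changes were 0.31 ± 0.23 (-0.21 to 0.83), -0.18 ± 0.22 (-0.68 to 0.32) and 0.13 ± 0.25 (-0.43 to 0.69).

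The ratio of Col6a1 to Col6a2 was the 1 of the 5 chain ratios computed that did not overlap between groups. Per kb, Col6a1 stood to Col6a2 as 3.67, 3.08 and 3.47 in SRA-/- libraries, against 2.04, 2.56 and 2.61 in wild type libraries, with means of 3.41 ± 0.30 in SRA-/- and 2.40 ± 0.32 in wild type (SD, n = 3 each). An exact two-sided permutation test of it, added after the values were seen, gave p = 0.1, the smallest that 3 against 3 libraries allow, and 0.5 after Benjamini-Hochberg adjustment over the 5 ratios. Col6a3 stood to Col6a1 as 0.384, 0.531 and 0.381 in SRA-/- libraries and 0.509, 0.458 and 0.522 in wild type libraries. For type I the ratio of Col1a1 to Col1a2 was 0.843, 1.24 and 1.12 in SRA-/- libraries and 0.909, 0.933 and 1.05 in wild type libraries. Counts per kb of exon were thus nearly equal for both type I chains, over 6563 exon bases of Col1a1 and 12426 of Col1a2. Without scaling to length, Col1a2 had the higher CPM in every library. Col5a1 exceeded Col5a2 by 3.11 to 5.33 times in SRA-/- libraries and by 4.05 to 4.97 times in wild type libraries. The lengths behind these ratios are all exon bases of a gene, so a ratio depends on the transcripts annotated.

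**Figure D4:**
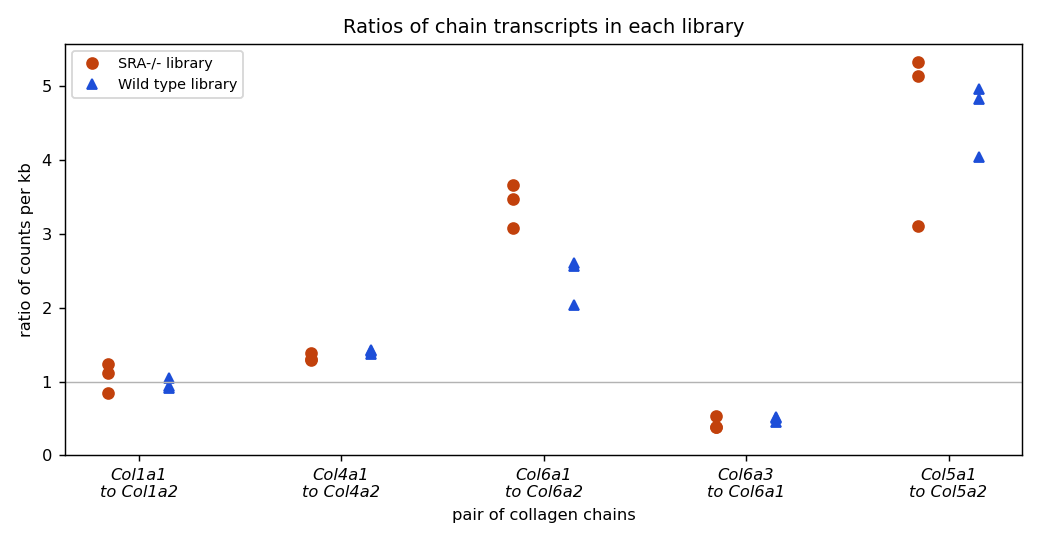
Ratio of counts per kb for 5 pairs of collagen chains, with 1 symbol per library, circles for SRA-/- and triangles for wild type. Col6a1 to Col6a2 runs from 3.08 to 3.67 in SRA-/- libraries and from 2.04 to 2.61 in wild type libraries, while Col4a1 to Col4a2 lies between 1.29 and 1.42 in all 6.

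There were 20 tested genes that were neither abundant in their class, nor low in p, nor chains of these ratios, Col3a1 among them. Their means ran from 0.159 to 9.15 TPM, and their lowest edgeR p was 0.127 before adjustment. Their log2 fold changes ran from -0.34 to 0.64. The top of that range was Col8a2, a short chain collagen known from the cornea, at 0.64 ± 0.38. Of the 7 genes not tested, Col19a1 and Col26a1 had 0 counts in all 6 libraries, which allows up to 0.136 to 0.253 CPM in a library. Col9a1, Col11a1, Col22a1, Col6a4 and Col28a1 had a few counts each, at most 9 in a library. The family lay on 15 chromosomes, and 10 members shared exon bases with a gene on the opposite strand, whose shared reads cannot be assigned without strand.

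The abundant collagens differed in which libraries were high and low, and marker lists of liver cell types are given beside them. Values here are deviations of log2(CPM + 0.5) from the mean of 6 libraries, in the order SRA-/- replicates 1 to 3 and then wild type replicates 1 to 3. Col18a1 had 0.10, -0.22 and 0.26 in SRA-/- libraries, against 0.23, 0.05 and -0.42 in wild type libraries. The median of 12 hepatocyte markers had -0.01, -0.19 and 0.67 in SRA-/- libraries, against 0.48, -0.02 and -1.01 in wild type libraries. SRA-/- replicate 3 and wild type replicate 1 were thus the highest 2 libraries in both, and wild type replicate 3 the lowest. The 12 hepatocyte markers, led by Alb, summed to 51405 to 112747 TPM in SRA-/- libraries and 32419 to 79491 TPM in wild type libraries, so hepatocyte RNA was abundant in this non-parenchymal fraction. Of these markers 10 of 12 had a fold change above 0 and none passed the test. Their part in the Col18a1 values was not tested.

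Col4a1 had 0.10, -0.54 and -0.06 in SRA-/- libraries, against -0.55, 0.41 and 0.64 in wild type libraries, and Col13a1 had 0.19, -0.63 and 0.11 in SRA-/- libraries, against -0.77, 0.25 and 0.85 in wild type libraries. The median of 10 endothelial markers was -0.03, -0.07 and -0.26 in SRA-/- libraries, against -0.36, 0.12 and 0.55 in wild type libraries. In these 3 series wild type replicate 3 was the highest library, wild type replicate 2 the next and wild type replicate 1 the lowest. This was not particular to them, since Col4a2, Col12a1 and the fibrillar genes Col1a2 and Col5a2 had it too. Col1a2 had 0.20, -0.02 and -0.33 in SRA-/- libraries, against -0.53, 0.29 and 0.40 in wild type libraries. The endothelial markers, led by Stab2, summed to 1011 to 1258 TPM in SRA-/- libraries and 794 to 1885 TPM in wild type libraries, and all 10 had a fold change below 0 without passing the test, with a median of -0.24 on the log2 scale. The fold changes of Col4a1, Col4a2 and Col13a1 had the same sign, and the part of the markers in them was not tested. In bulk RNA fewer cells of a type and less RNA per cell cannot be told apart.

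Col14a1, a collagen of fibril surfaces, had another order. It had 0.13, 0.17 and -0.47 in SRA-/- libraries, against -0.28, 0.31 and 0.13 in wild type libraries. The median of 10 stellate cell markers was 0.15, 0.10 and -0.54 in SRA-/- libraries, against -0.23, 0.23 and 0.31 in wild type libraries, and that of 7 portal fibroblast markers was 0.24, 0.17 and -0.44 in SRA-/- libraries, against -0.34, -0.07 and 0.25 in wild type libraries. SRA-/- replicate 3 was the lowest library in all 3. It was also the lowest for the medians of the smooth muscle (-0.61) and cholangiocyte (-0.45) markers, and for 13 of 37 tested collagen genes. Col1a1 and Col1a2 were lowest in wild type replicate 1 instead, at -0.67 and -0.53. Stellate cell markers, led by Ecm1, summed to 353 to 611 TPM in SRA-/- libraries and 356 to 776 TPM in wild type libraries, and 3 of 10 had a fold change above 0. Portal fibroblast markers, led by Dpt, summed to 12.8 to 24.1 TPM in SRA-/- libraries and 12.7 to 26.1 TPM in wild type libraries, and 3 of 7 had a fold change above 0. No marker of the hepatocyte, endothelial, stellate cell and portal fibroblast lists was at 0 in all libraries. The part of these lists in the collagen values was not tested.

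Col15a1 and Col5a3 had orders unlike the medians of these lists, with all SRA-/- libraries above all wild type libraries. Col15a1 had 0.23, 0.48 and 0.42 in SRA-/- libraries, against -0.61, -0.22 and -0.30 in wild type libraries. Col5a3 had 0.19, 0.02 and 0.34 in SRA-/- libraries, against -0.10, -0.17 and -0.27 in wild type libraries. Some single markers, chosen after their values were seen, had this order too, as had 3.97% of all genes tested. Pi16 and Thy1 of the portal fibroblast list had log2 fold changes of 0.85 ± 0.31 and 0.64 ± 0.30, and Upk3b of the mesothelial list had 0.80 ± 0.32. Their edgeR p was 0.0234, 0.0639 and 0.0324 before adjustment and 0.9999 after it. In the portal fibroblast list 4 of 7 markers had a fold change below 0. Among them Mfap4 did not overlap in the other direction, at -0.56 ± 0.36 on the log2 scale. S100a8, Csf3r and Retnlg of the neutrophil list and Cftr of the cholangiocyte list, which was not tested, were also higher in every SRA-/- library. Neutrophil markers, led by S100a9, summed to 81.2 to 442.6 TPM in SRA-/- libraries and 26.4 to 88.3 TPM in wild type libraries. Pancreatic acinar markers, led by Ctrb1, summed to 3.77 to 491.8 TPM in SRA-/- libraries and 716 to 1549 TPM in wild type libraries. Of 6 tested neutrophil markers all 6 had a fold change above 0 and an edgeR p under 0.05 before adjustment, which 2.32% of all genes tested had in that direction, and of 10 acinar markers all 10 had one below 0. No gene of these lists passed the adjusted threshold, and their part in the values of Col15a1 and Col5a3 was not tested. Of the remaining lists, fold changes were above 0 for 1 of 4 tested smooth muscle markers, 2 of 4 cholangiocyte markers, 5 of 5 mesothelial markers and 3 of 7 Kupffer cell markers, with 0 called.

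**Figure D5:**
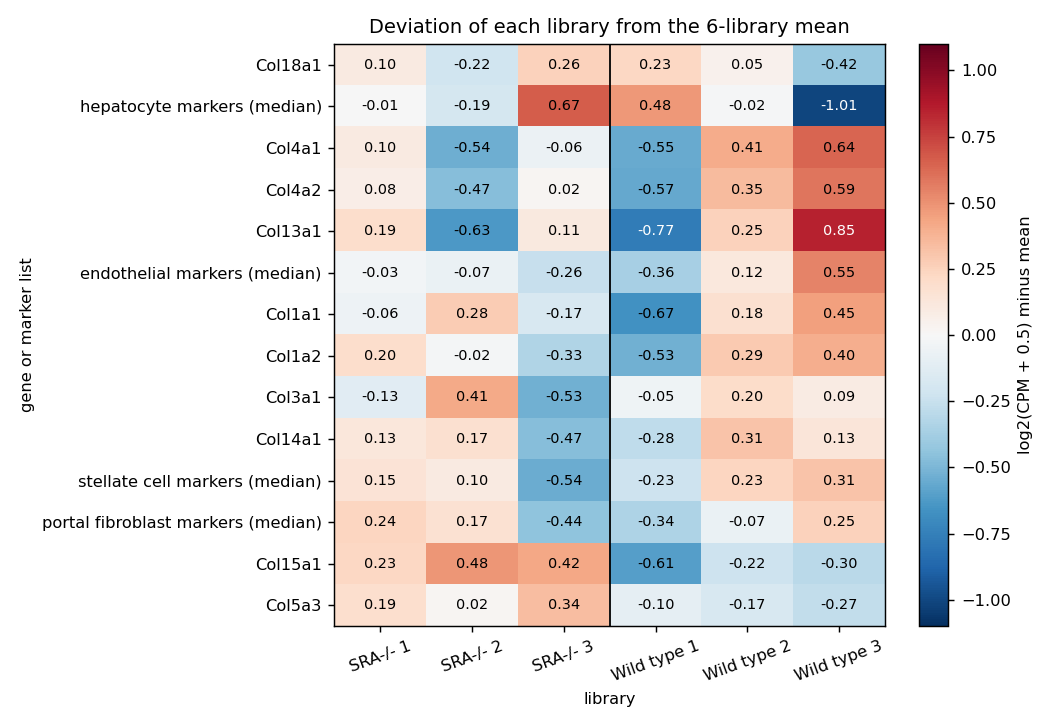
Deviation of log2(CPM + 0.5) from its 6-library mean for 10 collagen genes and for the median of 4 marker lists, with SRA-/- libraries left of the line and wild type libraries right of it. Red is above the mean and blue below; Col4a1, Col4a2, Col13a1 and the endothelial markers are highest in wild type replicate 3, where Col18a1 and the hepatocyte markers are lowest.

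Leaving out 1 library changed how many collagen genes had an edgeR p under 0.05 before adjustment. There were 2 when any 1 of the SRA-/- libraries was left out, and 1 when wild type replicate 2 or wild type replicate 3 was. For these settings the share of all genes tested is not given, so the counts are descriptions. SRA-/- replicate 3 was the lowest library for 13 tested collagen genes and wild type replicate 1 for 12. Without wild type replicate 1, 7 of 37 collagen genes (18.9%) had an edgeR p under 0.05 before adjustment, where 7.01% of the 21243 genes then tested had one. Of these, Col15a1, Col27a1 and Col5a3 were higher in SRA-/- libraries (background 4.12%), and Col4a1, Col4a2, Col13a1 and Col5a2 were lower (background 2.9%), with log2 fold changes of -0.67, -0.57, -0.64 and -0.49. Wild type replicate 1 was the lowest library of these 4 genes, so leaving it out lowers their fold change by construction. The lowest adjusted p among them was 0.584, so no member passed in this setting either.

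The genes that make, trim, crosslink and bind collagen had 0 called in each of 4 lists. Of 18 folding and modification genes 8 had a fold change above 0 and 10 below. P4hb, the disulfide isomerase that is also a subunit of prolyl 4-hydroxylase, was the most abundant, at 784 ± 154 CPM in SRA-/- libraries and 653 ± 161 CPM in wild type libraries (SD, n = 3 each), with 0.26 ± 0.28 as its log2 fold change. P3h4, a member of the endoplasmic reticulum complex needed for lysyl hydroxylation, had 1.64 ± 0.20 CPM in SRA-/- libraries and 0.815 ± 0.23 CPM in wild type libraries, and its log2 fold change was 0.9996 ± 0.35. Plod2, the lysyl hydroxylase of collagen telopeptides, had 1.73 ± 0.44 CPM in SRA-/- libraries and 3.59 ± 1.61 CPM in wild type libraries, a log2 fold change of -1.03 ± 0.40. The edgeR p of P3h4 was 0.0191 and that of Plod2 was 0.0275 before adjustment, and both were 0.9999 after it.

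Of 8 procollagen processing genes 7 were tested, 1 above 0 and 6 below, with a median of -0.17 on the log2 scale. Bmp1, the C-propeptidase of fibrillar procollagens, had 253 ± 16.5 CPM in SRA-/- libraries and 263 ± 51.3 CPM in wild type libraries, a log2 fold change of -0.05 ± 0.21. Adamts3, an N-propeptidase, had a log2 fold change of -0.52 ± 0.26 and Pcolce, the enhancer of Bmp1, one of 0.20 ± 0.21.

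Of the 5 lysyl oxidases 3 were above 0 and 2 below. Loxl2, known for crosslinking in liver fibrosis and active on type IV collagen, had 7.01, 8.05 and 6.54 CPM in SRA-/- replicates 1 to 3, against 9.45, 12.3 and 13.0 CPM in wild type replicates 1 to 3. All SRA-/- libraries lay below all wild type libraries, as they did for 3.33% of all genes tested. Adamts3, Itga2 and Itga10 had that order too, and P3h4 had the opposite one, as had 3.97% of all genes tested. The log2 fold change of Loxl2 was -0.69 ± 0.21 (95% interval -1.16 to -0.21). Its edgeR p was 0.00909 before and 0.9999 after adjustment, so it did not pass. Loxl1 and Loxl4 had log2 fold changes of 0.30 ± 0.32 and -0.01 ± 0.23.

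Of 11 genes for collagen receptors and collagen uptake 4 were above 0 and 7 below, with a median of -0.11 on the log2 scale. Itgb1, the beta chain that all collagen-binding integrins share, had 315 ± 66.2 CPM in SRA-/- libraries and 324 ± 84.5 CPM in wild type libraries, a log2 fold change of -0.04 ± 0.27. Itga10, an alpha chain known from cartilage, had 2.07 ± 0.70 CPM in SRA-/- libraries and 3.60 ± 0.70 CPM in wild type libraries, and Itga2, the alpha chain of platelets and epithelia, had 5.19 ± 1.17 CPM in SRA-/- libraries and 7.40 ± 0.9999 CPM in wild type libraries. Their log2 fold changes were -0.80 ± 0.32 and -0.51 ± 0.25, with edgeR p of 0.0318 and 0.0667 before adjustment and 0.9999 after it.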

How the data were processed

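Total RNA of liver non-parenchymal cells was depleted of ribosomal RNA and made into libraries with a KAPA kit, per the labels' protocols. The tools named in the submitters' processing notes are FastQC, featureCounts and STAR, and the build is mm39. Per the file headers, the authors' deposited values are raw counts of exon reads by gene name on GENCODE vM26 (featureCounts 2.0.2), with paired-end input, without strand and without counting pairs, so both mates of a fragment count. Of counts from 1 to 4, 68.5% to 71.9% were even. Reads with several places or genes were not counted. The version of STAR is not given in the sources used here. Gene lengths in base pairs are the authors', as deposited.

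Groups came from the titles. The counts went into edgeR 4.0.16 (R 4.3.3), where filterByExpr kept 20541 of 53546 genes, TMM factors ran from 0.896 to 1.08, and a robust quasi-likelihood fit on group alone was tested with glmQLFTest. P-values were adjusted by Benjamini-Hochberg over all tested genes at 0.05. The standard error is the fold change over the root of its F statistic, and the common biological coefficient of variation was 0.282. TPM used the deposited lengths, and deviations a pseudocount of 0.5. No pair of libraries of a group agreed within sampling noise (chi-square per degree of freedom at least 81.7). The procedure was tested on simulated data.

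Given library by library by rule were the 3 genes with the highest mean TPM per class, the 3 with the smallest p per direction, called genes and the chains of the ratios, and Col3a1, chosen after its values were seen. From each pathway list the 2 genes with the smallest p and the most abundant were named. The genes, classes, gene lists and tests were chosen with earlier results of these data known, and their counts are descriptions.

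Tried as alternatives were library totals alone, DESeq2 size factors, mitochondrial and hepatocyte genes removed, DESeq2 1.42.0, limma-voom (limma 3.58.1) with quality weights, no filter, a filter of 1 CPM in 3 libraries, a block for the replicate number, leaving out each library in turn, and class sums without the most abundant gene. Promoter windows were RefSeq's for GRCm38.p6, and mm39 coordinates are the files'. Figures were drawn with matplotlib 3.10.9.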

Additional observations from a re-analysis of the deposited data

How the results depend on the processing

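No collagen gene and none of the 12 pathway genes named passed the threshold under any of 14 alternatives, and the lowest adjusted p of a collagen gene in any was 0.168. The count of all genes past the threshold, 10, was 68 with DESeq2, 99 with limma-voom, 32 without a filter, 5 with the replicate block and 3 to 40 with 1 library left out. Collagen genes with a p under 0.05 before adjustment were 1 in the main setting, 2 with DESeq2 and 5 with limma-voom. The shares of all genes tested were 3.22%, 3.51% and 11.7%. There were 3 such collagen genes with DESeq2 size factors and 3 with mitochondrial and hepatocyte genes removed. There were 2 without a filter, 2 with the 1 CPM filter and 1 to 7 with 1 library left out. For these settings the share of all genes tested is given only without wild type replicate 1, 7.01%, so the other counts are descriptions. Leaving out 1 library moved the median log2 fold change to between -0.14 and 0.071 for all collagens, -0.26 and 0.049 for fibrillar genes, -0.076 and 0.25 for basement membrane genes, and -0.14 and 0.14 for the others. Without Col18a1 the log2 ratio of the basement membrane sum was -0.38, against -0.051 with it. Signs turned with 1 library left out for Col1a1 (-0.29 to 0.22), Col18a1 (-0.083 to 0.23), Col13a1 (-0.64 to 0.11), Col14a1 (-0.25 to 0.071), Col1a2 (-0.37 to 0.031), Col6a3 (-0.077 to 0.34), Col5a2 (-0.49 to 0.066), Bmp1 (-0.20 to 0.088), Loxl4 (-0.18 to 0.13) and Itgb1 (-0.23 to 0.13). Col6a3 was also at -0.082 with limma-voom, and with the replicate block Col1a1 was at 0.032 and Loxl4 at 0.011. The causes were not tested. Libraries of the same number did not deviate together (correlations -0.29, -0.14 and -0.13), no library correlated best with its own number, and under the replicate block 1 collagen gene had a p under 0.05 and 0 were called. For 16 of 37 collagen genes the 95% interval reached a 2-fold difference, which these libraries could not exclude.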
